A study of Arabidopsis thaliana with 8 samples.

Results

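The genes described here pattern the upper and lower sides of lateral organs in Arabidopsis thaliana: 5 HD-ZIP III genes (REV, PHB, PHV, CNA and HB8), 3 KANADI genes (KAN1, KAN2 and KAN3), AS1 and AS2. They were chosen by their AGI codes, the locus identifiers of the genome, and all 10 were among the 22281 genes with a transcript level. All 10 also had a mean level of 1 FPKM or more and entered the test, which covered 17706 genes. FPKM is a fragment count divided by transcript length and by a measure of library size, so levels of different genes can be set side by side.

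The samples were 4 libraries of the lsh1 lsh3 lsh4 mutant (replicates 5 to 8) and 4 of wild type (replicates 1 to 4), both in the Col-0 strain. Poly-A RNA came from young inflorescences, rich in inflorescence and floral meristems and in flowers no later than stage 8, from plants under 16 h light and 8 h dark. LSH1, LSH3 and LSH4 encode nuclear proteins of the plant-specific ALOG family. The alleles, and whether each replicate came from separate plants, are not stated. The comparison asks which transcripts differ in the inflorescence when these genes are mutated. The p-values rest on the variation among the 4 libraries of a genotype, and part of it may be technical.

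An organ primordium forms on the flank of the meristem with an adaxial side facing the meristem and an abaxial side facing away. HD-ZIP III transcription factors promote adaxial fate and meristem and vascular development, and the microRNAs miR165 and miR166 remove their transcripts from abaxial cells. KANADI proteins, which belong to the GARP group of DNA-binding factors, promote abaxial fate and oppose the HD-ZIP III genes. AS1, a MYB protein, and AS2, a LOB-domain protein, act in a complex that keeps KNOX meristem genes off in organ primordia and helps to set adaxial identity.

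What the 5 HD-ZIP III transcripts share is a site complementary to miR165 and miR166. The mature sequences below (RefSeq annotation of assembly TAIR10.1, written 5′ to 3′ with the seed, bases 2 to 8, in capitals) are shown because they are the regulators common to the HD-ZIP III members. The 2 MIR165 and 7 MIR166 loci gave 1 mature sequence per family.
miR165: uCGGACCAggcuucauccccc
miR166: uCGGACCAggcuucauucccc

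Both have the same seed, and they differ at 1 base (C17U, miR165 base first, counted from the 5′ end). The best-matching 21-base site in each HD-ZIP III transcript follows as DNA on the transcript strand, 5′ to 3′, with capitals at bases that differ from the exact complement of miR166.
REV: CTggGatgaagcctggtccgG
PHB: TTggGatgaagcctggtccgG
PHV: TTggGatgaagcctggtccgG
CNA: CTggaatgaagcctggtccgG
HB8: CTggGatgaagcctggtccgG

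The bases facing the seed were intact in all 5, and the last base of the site, which faces base 1 of the microRNA, differed in each. PHB and PHV had the same site, as did REV and HB8. CNA had 3 mismatches to miR166 and 4 to miR165, while REV, PHB, PHV and HB8 had 4 to miR166 and 3 to miR165, because those 4 sites carry the substitution A5G (the complement of miR166 first, counted from the 5′ end of the site) and CNA does not. In each gene the site lay in coding sequence and was split by an intron, so that it is complete only in the spliced transcript. On TAIR10.1 the REV site lay at chr5:24398787-24398797 and chr5:24398889-24398898 on the plus strand, and the PHB site at chr2:14642530-14642539 and chr2:14642656-14642666 on the minus strand. The PHV site lay at chr1:10799330-10799339 and chr1:10799435-10799445, and the CNA site at chr1:19412976-19412985 and chr1:19413075-19413085, both on the minus strand. The HB8 site lay at chr4:15866872-15866881 and chr4:15866964-15866974 on the minus strand. It joined exons 5 and 6, and the other 4 sites joined exons 4 and 5. The best stretch in KAN1, KAN2, KAN3, AS1 and AS2 had 8 to 11 mismatches to miR166. Among all 31346 genes searched, 11 (0.0351%) had a stretch with 4 mismatches or fewer, so 6 genes outside the family did too. A match describes the letters only, and the microRNAs and the MIR165 and MIR166 loci were not analysed here.

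The libraries were checked first. LSH4 had 5.56, 7.25, 5.45 and 3.79 FPKM in mutant replicates 5 to 8, against 19.2, 24.0, 22.8 and 22.4 FPKM in wild type replicates 1 to 4, and LSH1 was also lower in every mutant library. LSH3 overlapped between genotypes (10.2 to 15.6 FPKM in the mutant, 10.5 to 23.3 FPKM in wild type). Of 10 young inflorescence markers 8 reached a mean of 1 FPKM, among them STM, the meristem homeobox gene, at 62.1 to 69.0 FPKM in the mutant and 76.8 to 98.6 FPKM in wild type, whereas of 5 markers of later anthers LAP6 alone did. Of the 8 inflorescence markers, 7 had negative fold changes (median -0.20), and TFL1 had a positive one (0.48). STM had a log2 fold change of -0.37 (limma adjusted p = 0.145), and was in the authors' deposited list of differential genes (-0.38 there). Touch and early stress genes ran from 2.44 to 3.14 in the mutant and from 2.86 to 6.53 in wild type (mean log2(FPKM + 1) over 8 genes), with wild type replicate 1 highest. All 8 had negative fold changes (median -1.78), and 0 had a limma adjusted p under 0.05. For 5 the unadjusted limma p was under 0.05 (12.5% of all genes), and for 4 the genotypes did not overlap (7.89%). CBF2, ZAT12, WRKY40, TCH2 and ZAT10 were in the authors' list (-4.59 to -1.36 there). The 11 photosynthesis genes all had positive fold changes (median 0.36), with mean levels from 9.89 to 10.2 in the mutant and from 9.35 to 10.1 in wild type. Of these 11, 6 had an unadjusted limma p under 0.05, where 12.5% of all genes did, and 0 had an adjusted p under 0.05. On the first principal component wild type replicates 1 and 2 lay apart at one end (-55.0 and -24.2) and mutant replicate 8 at the other (39.0), with the remaining 5 libraries from -0.99 to 18.2. In mutant replicate 8, 2461 genes were listed at 0, and in each of the remaining 7 libraries 1233 to 1884 were. The transcript levels are a mixture over all cells sampled, so fewer cells of a type and less RNA per cell cannot be told apart.

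None of the 10 polarity genes passed the test over all genes. In limma with Benjamini-Hochberg adjustment, 33 of 17706 genes (0.186%) had an adjusted p under 0.05, 24 of them higher (0.136%) and 9 lower (0.0508%). Dropping 1 library gave 0 (wild type replicate 2), 104 (wild type replicate 3) or 4 to 10 calls (any other), and the members' count stayed at 0 in all of these. At an unadjusted p under 0.05 there were 3 of the 10, where 12.5% of all genes reached it: KAN2 and PHV with negative fold changes (5.62% of all genes) and HB8 with a positive one (6.91%). Dropping wild type replicate 1 left 1 of the 10 (HB8), dropping wild type replicate 4 gave 1 (AS1), and dropping mutant replicate 5, 6 or 7 gave 0, while 9.65 to 13.2% of all genes reached it in these 5 fits. The log2 fold changes without wild type replicate 1 were 0.34 for HB8, -0.39 for KAN2, -0.17 for PHV and 0.19 for AS1, and without wild type replicate 2 they were 0.29 for HB8, -0.42 for KAN2, -0.19 for PHV and 0.27 for AS1. Dropping mutant replicate 8 left 3 of the 10 at an unadjusted p under 0.05 (11.9% of all genes), with 0.28 for HB8, -0.55 for KAN2, -0.18 for PHV and 0.28 for AS1. The fold changes of the 10 ran from -0.43 (KAN2) to 0.27 (AS1) on the log2(FPKM + 1) scale, 5 positive and 5 negative, with a median of 0.03 where the median of all genes tested was -0.01. The authors' deposited table of 822 differential genes held 0 of the 10. As 22281 genes had a transcript level, a count of 0 in 10 is near the share of all genes listed there.

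**Figure D1:**
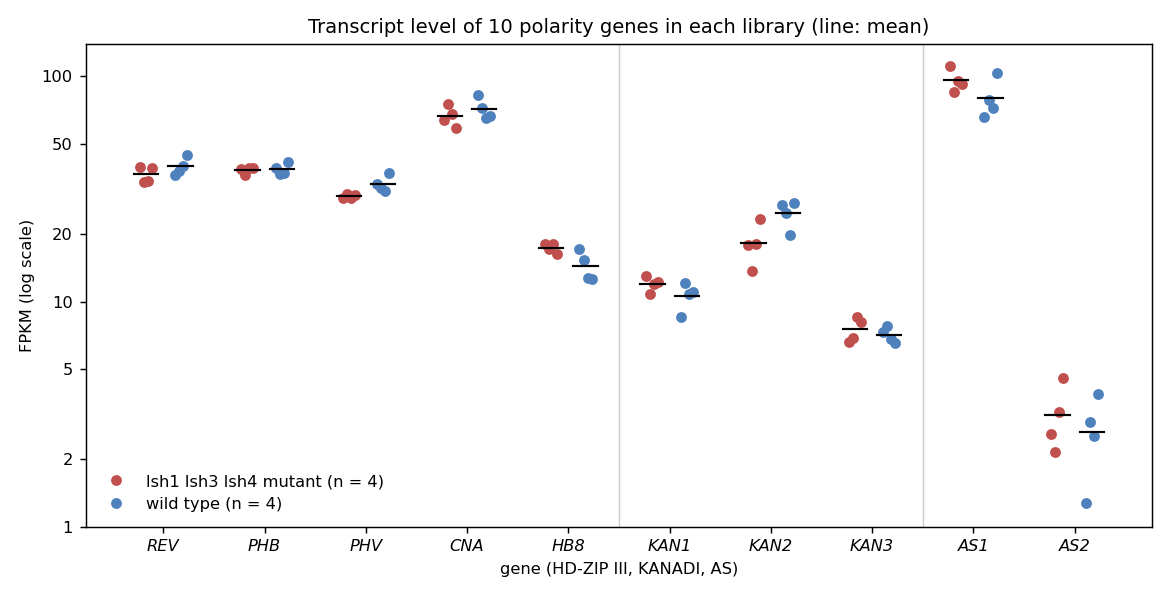
FPKM (log axis) of each gene in the 4 lsh1 lsh3 lsh4 mutant libraries (red) and the 4 wild-type libraries (blue), with the mean of each genotype as a line. PHV is the 1 gene whose genotypes do not overlap (mutant at most 29.9 FPKM, wild type at least 30.9 FPKM), and AS2, at 1.27 to 4.59 FPKM, is the lowest.

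Levels spanned a wide range, in nearly the same order in both genotypes. In the mutant, AS1 was highest at 96.0 ± 11.2 FPKM (mean ± SD, n = 4 here and below), followed by CNA at 66.8 ± 6.87, PHB at 38.4 ± 1.39, REV at 36.8 ± 3.17 and PHV at 29.5 ± 0.52 FPKM. KAN2 (18.2 ± 3.96 FPKM), HB8 (17.3 ± 0.81), KAN1 (11.99 ± 0.86), KAN3 (7.56 ± 0.93) and AS2 (3.14 ± 1.07) came after them. In wild type the order was AS1 (80.2 ± 16.4 FPKM), CNA (71.8 ± 8.15), REV (39.99 ± 3.67), PHB (38.7 ± 2.13) and PHV (33.5 ± 2.86), then KAN2 (24.7 ± 3.55), HB8 (14.4 ± 2.13), KAN1 (10.6 ± 1.51), KAN3 (7.10 ± 0.55) and AS2 (2.65 ± 1.08). REV and PHB did not differ beyond their spread in either genotype. The same held for KAN2 and HB8 in the mutant and for AS1 and CNA in wild type.

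Among the HD-ZIP III genes, REV and PHB were close in level in both genotypes. REV (AT5G60690), which promotes adaxial fate and the start of axillary and floral meristems, had 39.7, 33.8, 34.2 and 39.3 FPKM in mutant replicates 5 to 8, against 36.6, 38.1, 40.2 and 45.0 FPKM in wild type replicates 1 to 4. The genotypes overlapped, with the highest value in wild type replicate 4. Its log2 fold change was -0.12 with a 95% interval from -0.32 to 0.08 (limma adjusted p = 0.607), and it was -0.06 without wild type replicate 4. PHB (AT2G34710), whose microRNA-resistant alleles turn abaxial tissue adaxial, had 38.8, 36.4, 39.4 and 39.1 FPKM in the mutant and 39.2, 36.8, 37.4 and 41.5 FPKM in wild type. PHB was the steadiest of the 10: its highest library was 1.14 times its lowest, and 3.25% of all genes tested had a smaller ratio. Its log2 fold change of -0.01 had a 95% interval from -0.15 to 0.13 (limma adjusted p = 0.964), which spans 0.899 to 1.096 times the wild-type level on this scale.

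PHV (AT1G30490), the closest paralogue of PHB and active with it in adaxial fate, was the 1 member whose genotypes did not overlap. It had 29.0, 29.9, 29.0 and 29.9 FPKM in mutant replicates 5 to 8, against 33.4, 32.0, 30.9 and 37.5 FPKM in wild type replicates 1 to 4. The 4 mutant libraries lay within 1 FPKM of each other, below all of wild type, of which replicate 3 was nearest and replicate 4 farthest. The log2 fold change was -0.17 with a 95% interval from -0.34 to -0.01 (limma adjusted p = 0.368). The 2-sided exact permutation p over the 8 libraries was 0.0286, the smallest that 4 against 4 allow, and 7.89% of all genes tested had no overlap, 3.74% with the mutant lower. With the total of each library set equal (TPM) the fold change was -0.16 (limma adjusted p = 0.501).

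CNA and HB8, which act together with the others in meristem size and in vascular development, differed from each other. CNA (AT1G52150), which limits the size of the shoot meristem, had 64.2, 75.6, 68.0 and 59.3 FPKM in mutant replicates 5 to 8, against 83.1, 72.2, 65.3 and 66.5 FPKM in wild type replicates 1 to 4. The ranges overlapped, and the log2 fold change was -0.10 (95% interval -0.33 to 0.13, limma adjusted p = 0.708). It was -0.03 without wild type replicate 1, -0.05 without mutant replicate 8 and -0.16 without mutant replicate 6. HB8 (AT4G32880), a marker and regulator of procambium and xylem precursors, had 18.0, 17.1, 18.0 and 16.3 FPKM in the mutant and 17.1, 15.3, 12.8 and 12.6 FPKM in wild type. Mutant replicates 5 to 7 lay near or above the highest wild-type library, replicate 1, and mutant replicate 8 lay below it. The log2 fold change was 0.26 (95% interval 0.02 to 0.49, limma adjusted p = 0.365, 2-sided exact permutation p = 0.0857). All 9 vascular markers had positive fold changes (median 0.25), 0 reached an unadjusted limma p under 0.05, and their mean level ran from 3.81 to 4.45 in the mutant and from 3.44 to 4.14 in wild type. Their part in the HB8 values was not tested.

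Of the 3 KANADI genes among the 10, KAN2 was the one lower on average in the mutant. KAN4, a KANADI gene outside the 10, was lower on average too and is described below. KAN2 (AT1G32240), which acts redundantly with KAN1 in abaxial fate, had 17.9, 13.7, 17.9 and 23.4 FPKM in mutant replicates 5 to 8, against 26.9, 24.7, 19.7 and 27.5 FPKM in wild type replicates 1 to 4. Mutant replicates 5, 6 and 7 lay below all of wild type, and mutant replicate 8 lay above wild type replicate 3. The log2 fold change was -0.43 (SE 0.16, 95% interval -0.80 to -0.06, limma adjusted p = 0.335, 2-sided exact permutation p = 0.0571). It was the largest in size among the 10, equal to 0.743 times the wild-type level on the log2(FPKM + 1) scale. Without mutant replicate 6, the lowest library, it was -0.31 (limma adjusted p = 0.413), and without mutant replicate 8 it was -0.55 (limma adjusted p = 0.243). When libraries were weighted by their own variability, a fit that called 2323 genes (13.1%), KAN2 passed (-0.48, limma adjusted p = 0.0222) and the other 9 members did not.

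KAN1 and KAN3 had small positive fold changes. KAN1 (AT5G16560), the founding member of the family, had 12.9, 10.9, 11.97 and 12.2 FPKM in mutant replicates 5 to 8, against 8.51, 12.1, 10.8 and 11.04 FPKM in wild type replicates 1 to 4. Wild type replicate 1 was the lowest and the other 3 lay within the mutant range or just below it. KAN3 (AT4G17695), which shares abaxial activity with KAN1 and KAN2, had 6.64, 6.90, 8.55 and 8.14 FPKM in the mutant and 7.30, 7.77, 6.80 and 6.53 FPKM in wild type. The KAN3 ranges overlapped in part, with mutant replicates 7 and 8 above all of wild type and wild type replicate 4 below all of the mutant. The log2 fold changes were 0.17 for KAN1 (95% interval -0.08 to 0.42, limma adjusted p = 0.554) and 0.08 for KAN3 (95% interval -0.16 to 0.31, limma adjusted p = 0.795). The KAN1 value was 0.08 without wild type replicate 1 and 0.05 with library weights. The KAN3 value ran from 0.02 without mutant replicate 7 to 0.13 without mutant replicate 5, and was 0.04 without mutant replicate 8 or wild type replicate 4. Leaving out wild type replicate 2 gave 0.11. KAN1 overlaps a protein-coding and a long noncoding gene on the opposite strand. REV and AS1 each overlap 1 such protein-coding gene. The sources used here do not say whether strand was kept, so reads from the overlaps cannot be told apart.

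AS1 and AS2, partners in 1 complex, lay far apart, AS1 exceeding AS2 by 4.99 ± 0.50 log2 units in the mutant and 5.01 ± 0.46 in wild type. AS1 (AT2G37630) had 111, 84.9, 95.2 and 92.6 FPKM in mutant replicates 5 to 8, against 66.2, 78.7, 72.5 and 104 FPKM in wild type replicates 1 to 4. All mutant libraries lay above wild type replicates 1 to 3, and wild type replicate 4 lay above 3 of the 4 mutant libraries. The log2 fold change was 0.27 (95% interval -0.05 to 0.59, limma adjusted p = 0.472), and it was 0.40 without wild type replicate 4 (limma adjusted p = 0.255). AS2 (AT1G65620) had 2.58, 2.15, 3.25 and 4.59 FPKM in the mutant and 1.27, 2.92, 2.52 and 3.87 FPKM in wild type. The genotypes overlapped almost fully, and the highest AS2 library was 3.61 times the lowest, the widest ratio of the 10. Its log2 fold change of 0.20 had the widest interval of the 10 (-0.39 to 0.80, limma adjusted p = 0.780), and without wild type replicate 1 it was -0.01 (limma adjusted p = 0.993). AS2 is also the member whose fold change depends most on the pseudocount, being 0.28 with a pseudocount of 0.1.

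**Figure D2:**
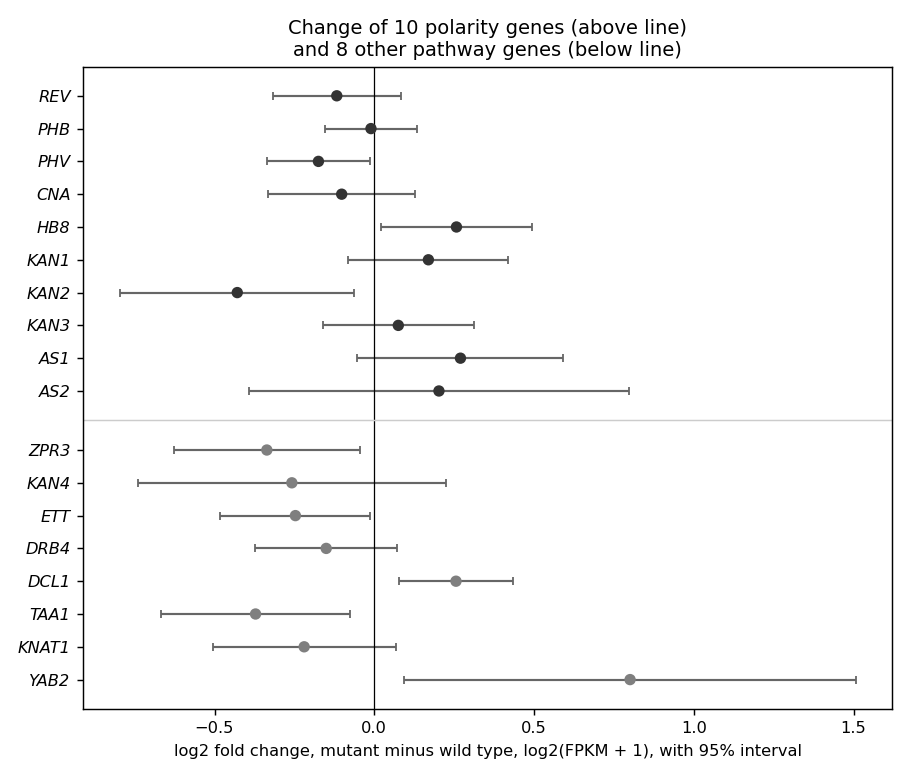
Log2 fold change of mutant minus wild type on the log2(FPKM + 1) scale, with 95% intervals from limma, for the 10 polarity genes (above the line) and 8 other genes of the pathway, 1 for each role. The 8 had the smallest p of their role in these same data, which favours larger changes, and the intervals are not adjusted for that choice. The points run from -0.43 (KAN2) to 0.80 (YAB2), and all adjusted p-values lie above the threshold.

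Relative levels within each family do not depend on the library total, and are given here as a description without a test. The HD-ZIP III pool summed to 190, 193, 189 and 184 FPKM in mutant replicates 5 to 8, against 209, 194, 187 and 203 FPKM in wild type replicates 1 to 4. CNA made up the largest part, with 35.3 ± 3.02% in the mutant and 36.1 ± 2.98% in wild type. HB8 made up 9.498, 8.85, 9.52 and 8.87% in the mutant, against 8.15, 7.86, 6.84 and 6.23% in wild type, and was the 1 of 8 family shares whose genotypes did not overlap. Without mutant replicate 8 or wild type replicate 3 there were 4 such shares, and without wild type replicate 1 or mutant replicate 5 there were 2. How often shares in other gene families separate was not computed. Among the levels of single genes tested, 7.89% did not overlap. The PHV share was 15.6 ± 0.44% in the mutant and 16.9 ± 1.08% in wild type. The REV shares were 19.5 ± 1.93% and 20.2 ± 2.11% and the PHB shares 20.4 ± 1.06% and 19.5 ± 0.86% in mutant and wild type, within their spreads.

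The KANADI pool, here KAN1, KAN2 and KAN3 without KAN4, was much smaller, and KAN2 was its largest part in every library. It summed to 37.5, 31.5, 38.5 and 43.7 FPKM in mutant replicates 5 to 8, against 42.7, 44.6, 37.3 and 45.0 FPKM in wild type replicates 1 to 4. KAN2 made up 47.8, 43.5, 46.7 and 53.5% in the mutant and 63.0, 55.4, 52.8 and 61.0% in wild type. Mutant replicate 8 and wild type replicate 3 were the only libraries in which these ranges met. KAN1 made up 34.5, 34.5, 31.1 and 27.9% in the mutant and 19.9, 27.1, 29.0 and 24.5% in wild type, and the KAN3 share was 20.1 ± 2.30% and 16.8 ± 1.61% in mutant and wild type. Set against each other, the HD-ZIP III sum exceeded the KANADI sum by 2.33 ± 0.22 log2 units in the mutant and by 2.23 ± 0.09 in wild type, with the mutant values (2.07 to 2.61) enclosing all those of wild type (2.13 to 2.32).

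**Figure D3:**
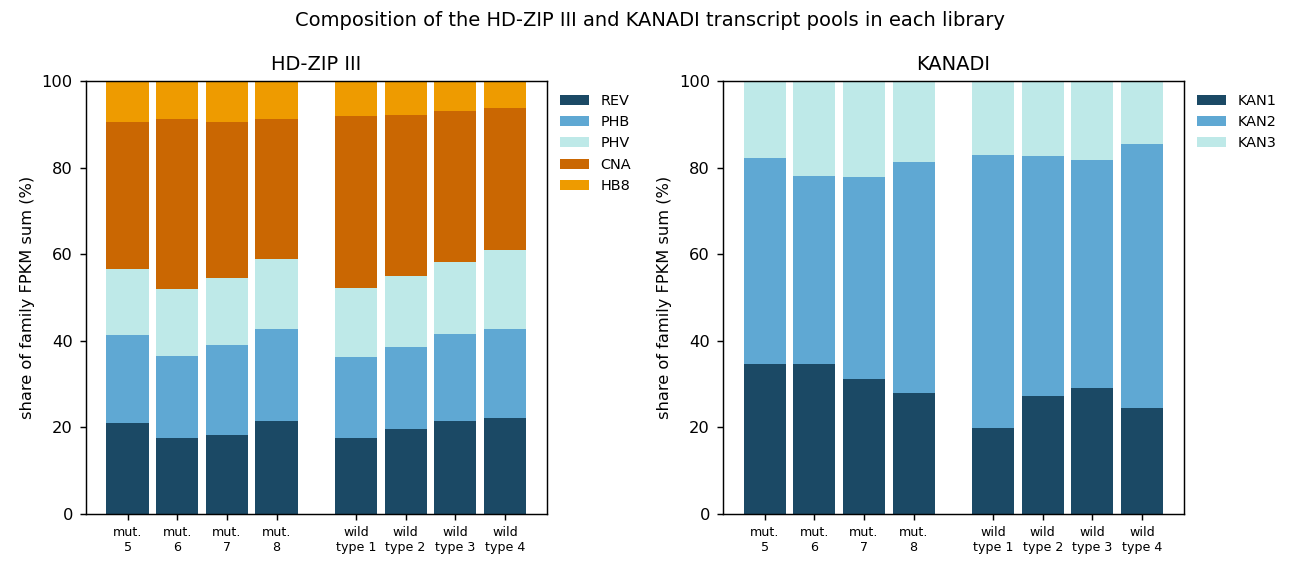
Share of each gene in the FPKM sum of its family (percent, stacked to 100%) in the 4 mutant libraries (left) and the 4 wild-type libraries (right). The KANADI sum leaves out KAN4. HB8 takes 8.85 to 9.52% of the HD-ZIP III pool in the mutant and 6.23 to 8.15% in wild type, and KAN2 takes 43.5 to 53.5% of the KANADI pool in the mutant and 52.8 to 63.0% in wild type.

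Ratios of related pairs, chosen after the values were seen, were set side by side for 3 pairs. The other pair ratio computed, AS1 relative to AS2, is given above, and its genotypes overlapped (difference in means -0.02). PHV relative to PHB was -0.42, -0.28, -0.44 and -0.39 log2 units in mutant replicates 5 to 8, against -0.23, -0.20, -0.28 and -0.15 in wild type replicates 1 to 4. These ranges did not overlap, mutant replicate 6 and wild type replicate 3 lying next to each other. How often ratios of other gene pairs separate in this way was not computed, so no background share stands beside these ranges. HB8 relative to CNA was -1.83, -2.15, -1.92 and -1.86 in the mutant and -2.28, -2.24, -2.36 and -2.39 in wild type, again without overlap. KAN1 relative to KAN2 had the largest difference in means, with -0.47, -0.33, -0.58 and -0.94 in the mutant and -1.66, -1.03, -0.86 and -1.32 in wild type, but mutant replicate 8 lay below wild type replicate 3, so its genotypes overlapped. Of the stretches of 50 bases in PHV transcripts, 0.495% also occurred in PHB and 1.12% in AT5G32670, a protein-coding gene, and 0.484% of those in PHB occurred in PHV, while REV, CNA, HB8, the KANADI genes, AS1 and AS2 shared none with another gene.

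The members differed in which libraries were high. AS2 was lowest in wild type replicate 1 and mutant replicate 6 and highest in mutant replicate 8 and wild type replicate 4. These 4 libraries also held the extremes of the floral organ genes AP3, PI and AG, whose mean log2(FPKM + 1) was 4.79, 3.504, 4.01 and 5.65 in mutant replicates 5 to 8, against 3.85, 4.89, 4.405 and 5.53 in wild type replicates 1 to 4. The 5 tested YABBY genes, abaxial regulators, had their lowest mean in wild type replicate 1 (3.28) and their highest in mutant replicate 8 (5.03). CNA ran the other way, highest in wild type replicate 1 and mutant replicate 6 and lowest in mutant replicate 8. With the mean of AP3, PI and AG as a covariate, an alternative chosen after seeing the data, 0 of the 10 members passed the test by limma, where 2.16% of all genes did, and 4 had an unadjusted p under 0.05, where 21.3% of all genes did. In that fit the log2 fold changes were -0.39 for KAN2 (limma adjusted p = 0.141), 0.30 for AS1 (0.186), 0.24 for HB8 (0.201) and -0.17 for PHV (0.204).

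**Figure D4:**
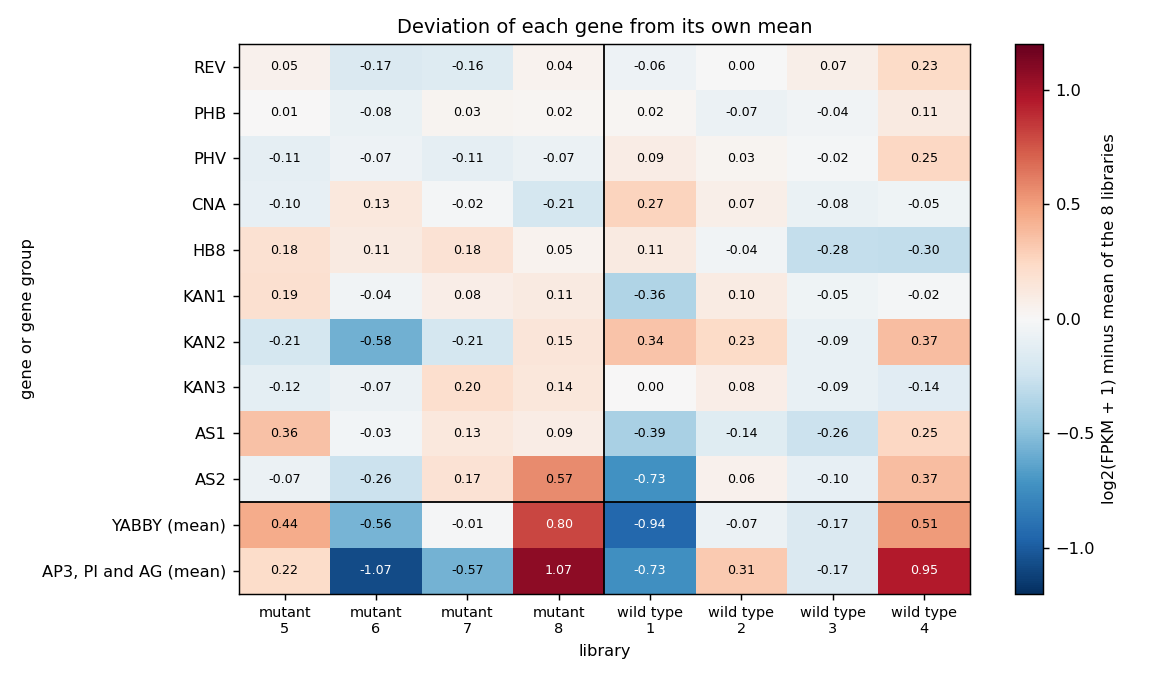
Log2(FPKM + 1) of each gene minus its own mean over the 8 libraries, mutant libraries left and wild-type libraries right, with the means of 5 YABBY genes and of AP3, PI and AG in the lower rows. AS2 runs from -0.73 in wild type replicate 1 to 0.57 in mutant replicate 8, while PHB stays between -0.08 and 0.11.

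Some genes outside the families followed single members closely across the 8 libraries, as Pearson's r on log2(FPKM + 1), with all points sharing library and tissue make-up. KAN2 was followed most closely by IDD1 (AT5G66730, r = 0.994), the homeobox gene HB-7 (AT5G46880, r = 0.982) and SLT1 (AT2G37570, r = 0.977). IDD1 had 21.4, 17.6, 20.6 and 25.2 FPKM in mutant replicates 5 to 8, against 28.9, 26.1, 22.4 and 27.9 FPKM in wild type replicates 1 to 4, so mutant replicate 6 was lowest and wild type replicates 1 and 4 highest for both genes. CNA was followed by SPDS3 (r = 0.983), CRL2 (0.982) and ABCB21 (0.978), and AS1 by AT1G80280 (0.981), AT1G72275 (0.975) and AT3G02065 (0.965). In all, 78 genes (0.441% of those tested) had an r above 0.9 with KAN2, 150 (0.847%) with CNA and 48 (0.271%) with AS1.

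Of 32 other genes of the polarity pathway, 28 were tested, and by limma none passed over all genes. Of these 28, 8 had positive and 20 negative fold changes, with a median of -0.11 where the median of all genes was -0.01, and 7 had an unadjusted p under 0.05, against 12.5% of all genes. Without the YABBY genes there were 4 positive and 19 negative values. Dropping wild type replicate 1 gave 3 pathway genes at an unadjusted limma p under 0.05, where 10.6% of all genes reached it. Dropping mutant replicate 7 gave 4 (10.9%), and dropping any other library gave 5 or 6 (8.04 to 15.3%). Most genes detailed below were picked as the smallest p of their role in these same data, which favours larger changes. The little zipper genes, whose small proteins bind and inactivate HD-ZIP III proteins, had 3 negative values of 3 tested. Among them ZPR3 had 7.06, 6.18, 5.99 and 7.83 FPKM in mutant replicates 5 to 8, against 8.85, 6.96, 10.04 and 9.48 FPKM in wild type replicates 1 to 4 (log2 fold change -0.34, limma adjusted p = 0.343). ZPR2 varied the most between libraries, from 7.21 to 64.6 FPKM within the mutant. The fourth KANADI gene, KAN4, which acts in ovule integuments, was low, with 2.08 ± 0.69 FPKM in the mutant and 2.64 ± 0.66 FPKM in wild type (-0.26, limma adjusted p = 0.645).

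Of the auxin response factors that work with KANADI proteins on the abaxial side, ETT had 51.5, 52.2, 53.3 and 57.8 FPKM in mutant replicates 5 to 8, against 59.96, 68.1, 54.0 and 75.3 FPKM in wild type replicates 1 to 4. The ranges met at mutant replicate 8 and wild type replicate 3 (log2 fold change -0.25, limma adjusted p = 0.377), the same libraries at which those of KAN2 met. ARF4 had 36.4 ± 0.98 FPKM in the mutant and 36.7 ± 2.69 FPKM in wild type (-0.01). The 5 genes that make the trans-acting small RNAs aimed at ETT and ARF4 had 2 positive and 3 negative values, with DRB4, a partner of the dicer DCL4, at -0.15 (limma adjusted p = 0.554).

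Of the genes that make or use miR165 and miR166, DCL1, which cuts microRNA precursors, had 16.0, 15.4, 15.1 and 14.8 FPKM in mutant replicates 5 to 8, against 11.4, 12.1, 13.5 and 13.7 FPKM in wild type replicates 1 to 4. It was the 1 of the 28 whose genotypes did not overlap, as in 4.15% of all genes in that direction, with a log2 fold change of 0.26 (95% interval 0.08 to 0.44, limma adjusted p = 0.238). The other 4 had negative values: AGO1 (-0.19), the effector of most microRNAs, HYL1 (-0.22), SE (-0.09), and AGO10 (-0.01), which withholds miR165 and miR166 from AGO1.

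Among genes bound by REV, TAA1, which makes an auxin precursor, had 19.4, 14.1, 17.0 and 14.7 FPKM in mutant replicates 5 to 8, against 23.6, 21.8, 17.1 and 22.9 FPKM in wild type replicates 1 to 4 (log2 fold change -0.37, limma adjusted p = 0.301). The mutant range took in wild type replicate 3 alone. ATHB2, a shade-responsive HD-ZIP II gene, was named because it was the 1 pathway gene in the authors' deposited table (log2 fold change -0.94, adjusted p = 0.0435 there). That table lists 822 genes where 22281 had a transcript level, so 1 among 28 tested pathway genes is near that share. ATHB2 had 7.08, 8.65, 8.59 and 6.48 FPKM in the mutant and 23.3, 14.99, 12.99 and 7.73 FPKM in wild type, with wild type replicate 4 within the mutant range, and did not pass here (-0.77, limma adjusted p = 0.303). HAT3 (-0.06) and ATHB4 (-0.12) had smaller values.

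The KNOX genes that AS1 and AS2 hold down in organs had 1 positive and 2 negative values of 3 tested, and 0 reached an unadjusted limma p under 0.05. KNAT1 had 97.1, 130, 116 and 85.1 FPKM in mutant replicates 5 to 8, against 130, 114, 124 and 124 FPKM in wild type replicates 1 to 4 (log2 fold change -0.22, limma adjusted p = 0.505). KNAT2 (0.01) and KNAT6 (-0.11) overlapped too. The YABBY genes had 4 positive values of 5. YAB2 had 21.5, 10.6, 16.5 and 27.4 FPKM in the mutant and 5.93, 10.99, 10.03 and 14.4 FPKM in wild type (0.80, 95% interval 0.09 to 1.51, limma adjusted p = 0.351). With the mean of AP3, PI and AG as a covariate 2 of the 28 pathway genes passed (2.16% of all genes), both higher: YAB2 (0.91, limma adjusted p = 0.0147) and YAB3 (0.79, limma adjusted p = 0.0408). With library weights 7 of the 28 did (13.1% of all genes): DCL1 and YAB5 higher, and AGO1, TAA1, ETT, ATHB2 and DCL4 lower.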

How the data were processed

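The submitters' processing notes name RSEM, DESeq2 and genome build TAIR10, while tool versions, the aligner, annotation and strand setting are not given in the sources. The authors deposited FPKM values, 1 for each gene in each library. Median-of-ratios size factors of these values were equal in all libraries (1.002), so the values already stood on a common median-of-ratios scale. The columns summed to 826022 to 906962, and absolute read depth is unknown; steps between low values gave a settled relative depth only for mutant replicates 6 and 7 (1.23 and 1.36 times wild type replicate 1). Their deposited list of differential genes holds log2 fold changes with raw and adjusted p-values.

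The fit used limma 3.58.1 (R 4.3.3) on log2(FPKM + 1) (2 genotypes, mean-variance trend, 2-sided) over 17706 genes of mean FPKM 1 or more, with Benjamini-Hochberg adjustment and a threshold of 0.05; intervals are 95%. The pseudocount understates changes of low genes. Family shares and ratios were described without a test. On simulated data of 17706 genes (10 runs) for mutant against wild type, 31.9% of changes of 0.5 log2 units, 79.6% of 1 and 93.5% of 2 were recovered, and 5.24% of calls were false. In each run 200 genes were changed, where the real fit called 33, and recovery may depend on that number. The members' fold changes (-0.43 to 0.27) were smaller than any simulated, so no rate is given for changes of their size. The simulated noise was independent for each gene and library. In the real libraries many genes vary together (first principal component 43.0% of the variance), so these rates may not hold for them. Sequences came from RefSeq on TAIR10.1, whose coordinates apply to that assembly only. Named pathway genes were the called members of each role, or otherwise the 1 with the smallest p. The members and gene lists were chosen with earlier results of these data known. Figures used Python 3.11.15 and matplotlib 3.10.9.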

Additional observations from a re-analysis of the deposited data

Results flagged for a closer look

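Of 66 groups of 4 libraries examined (levels, family shares and ratios by genotype), 1 held a library far from the other 3, where chance flags about 1 in 20. AS1 relative to AS2 was 5.70 log2 units in wild type replicate 1, against 4.74 to 4.85 in wild type replicates 2 to 4, the gap being 0.89 of the range of the 4. In the mutant the ratio ran from 4.33 to 5.43.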

How the results depend on the processing

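No paired analysis was possible because the genotypes share no replicate number. The count of members past the threshold (0) was unchanged in 17 of 18 alternatives, the exception being library weights (1, KAN2, -0.48, limma adjusted p = 0.0222). Median-of-ratios scaling could not change it, because the size factors were equal in all libraries (1.002). Outside the library weights and the covariate, the fits called at most 0.586% of all genes, so an unchanged 0 says little about the members. With library weights 7 genes of the pathway list passed, and with the mean of AP3, PI and AG as a covariate 2 did, against 0 in all other fits. Calls over all genes (33) were 12 with no filter, 19 after TPM rescaling, 2323 with library weights and 382 with the covariate, and 0 to 104 when 1 library was left out (0 without wild type replicate 2, with 1425 genes at an unadjusted p under 0.05; 104 without wild type replicate 3). The number of family shares without overlap (1) was 1 to 4 when 1 library was left out. The HD-ZIP III to KANADI difference (0.10) was 0.01 to 0.19 without 1 library and 0.03 from mean log2 values. The sign changed for PHB after TPM rescaling (0.0099), with library weights (0.048) and without 1 library (-0.034 to 0.023, positive without wild type replicate 4 or mutant replicate 6), and for AS2 without 1 library (-0.0073, without wild type replicate 1, to 0.359); the cause was not tested. The fold changes of the other 8 members kept their sign in every alternative run. Read depth is unknown, so no counting error can be given for any gene.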
